A study of Mus musculus with 6 samples.

Results

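The basic helix-loop-helix PAS (bHLH-PAS) factor genes Npas1, Npas3, Npas4, Sim1 and Arnt2 were followed in RNA from the mouse forebrain after 1 h of water avoidance stress (WAS). The genes were chosen by symbol, and all 5 were found among the 23282 entries of the deposited count tables, each as 1 entry. RNA was taken from one forebrain hemisphere of adult male C57BL/6J mice, without the olfactory bulb and cerebellum. If the sample labels hold, the mice labelled WAS (n = 3) had stood for 1 h on a small platform surrounded by water. The mice labelled control (n = 3) would then have stood on the same platform in a dry container. Each library came from 1 mouse and was made by QuantSeq 3′ mRNA-Seq, which reads the end of polyadenylated transcripts. Inside the tables the count heading starts WC for the mice labelled WAS and WS for the mice labelled control, letters that the sources used here do not define. Groups follow the sample labels, and an exchange of the labels would reverse every direction given below. The doubt is not only formal, because the study's own list of changed genes gives Npas1, and also Smtn and Ttc39aos1 named below, the direction opposite to that which the labels give.

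In this family, a bHLH domain contacts DNA and paired PAS domains hold 2 partner proteins together, or sense a ligand, oxygen or redox state in some members. Npas1, Npas3, Npas4 and Sim1 act as the specific partners, and Arnt2, abundant in neurons, or its relative Arnt is the shared partner that completes the DNA-binding dimer. Npas1 is known as a repressor in sets of inhibitory neurons of the cortex and globus pallidus, and Npas3 takes part in neurogenesis and is also found in astrocytes. Npas4 is an immediate early gene that neurons switch on after calcium entry, and it adjusts inhibitory synapses. Sim1, together with Arnt2, is needed to form the neurons of the paraventricular and supraoptic nuclei of the hypothalamus, the centre that starts the hormonal stress response.

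By GENCODE M21 on GRCm38 (mm10), all 5 genes are protein-coding. Npas1 lies on the minus strand at chr7:16455721-16477728, Npas3 on the plus strand at chr12:53248677-54072175 and Npas4 on the minus strand at chr19:4984355-4990316. Sim1 lies on the plus strand at chr10:50894754-50989152 and Arnt2 on the minus strand at chr7:84246278-84410176. Exons of Npas3 overlap those of the antisense gene 1700060O08Rik, and exons of Arnt2 overlap those of the antisense gene Gm30873. The counting is not stated to use strand, so reads of these pairs cannot be told apart. For none of the 5 genes did the last 500 bases of the longest transcript share a stretch of 50 bases with a transcript of another gene.

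The 250 bases before the RefSeq start site (GRCm38.p6) were searched for each gene, and they are shown for Npas1 and Npas3, with a stretch of 29 bases for Npas4, since these members had an unadjusted p under 0.05 in the test given further on. Matches to TGACGTC (the cyclic AMP response element TGACGTCA without its last base), ACGTG (a core bound by Arnt dimers) and TCGTG (a core linked to Npas4) on either strand are in capitals.
Npas1, chr7:16476781-16477030, minus strand: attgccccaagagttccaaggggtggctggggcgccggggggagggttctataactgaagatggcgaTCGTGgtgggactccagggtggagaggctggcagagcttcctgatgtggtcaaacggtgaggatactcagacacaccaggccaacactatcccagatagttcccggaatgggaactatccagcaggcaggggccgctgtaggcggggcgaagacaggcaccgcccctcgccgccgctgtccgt
Npas3, chr12:53248182-53248431, plus strand: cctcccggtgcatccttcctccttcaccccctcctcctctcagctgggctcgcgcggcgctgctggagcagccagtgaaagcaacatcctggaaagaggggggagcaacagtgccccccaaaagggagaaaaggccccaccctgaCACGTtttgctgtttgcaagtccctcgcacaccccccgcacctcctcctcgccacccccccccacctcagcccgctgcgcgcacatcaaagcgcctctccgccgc
Npas4, chr19:4990129-4990157, minus strand: cgttcGACGTCAcgggaTGACGTCggaag
The Npas4 window held 2 matches to TGACGTC, beginning at positions -181 and -169 from the start site. That motif occurred in 2.78% of the 32851 promoter windows of this length, while the full TGACGTCA occurred in 1.55% and in none of the 5 genes. Npas4 also held TATATAA at -28, which 3.04% of windows contained. The Npas1 window held 1 TCGTG at -183 (13.3% of windows) and the Npas3 window 1 ACGTG at -105 (16.6% of windows). The Sim1 and Arnt2 windows held none of these motifs. A GENCODE transcript begins at the RefSeq start of Npas1, Npas4 and Sim1, and none does for Npas3 and Arnt2. The Npas1 window lies within the span of its GENCODE gene, which reaches chr7:16477728, but outside the exons of that gene. By GENCODE, all 250 bases of the Npas4 window, 178 of the Sim1 window and 138 of the Arnt2 window lie in the untranslated region of another transcript of the same gene, so windows drawn from that annotation would differ.

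The libraries held between 9248520 and 10067053 counts in the WAS group and between 9977945 and 10502029 in the control group. Levels are given as counts per 1000000 counts of the library (CPM), and differences as log2 fold changes of WAS relative to control from edgeR's quasi-likelihood test on the 15239 genes above a low-count cutoff. An unadjusted p under 0.05 was reached by 1104 genes (7.24%), and 0 had an adjusted p under 0.05 (DESeq2 gave 22). With a fold change of at least 1.5 as well, which are the study's criteria, 380 of the genes tested (2.49%) passed. The study's own list at these thresholds is much shorter. It came from quantile-normalized counts and a test that the study does not name. Summed region markers differed widely between libraries. The 7 striatum markers summed to 108 and 251 CPM in WAS replicates 1 and 3 against 688 to 1376 CPM in the other 4 libraries, and the 5 thalamus markers to 314 and 248 CPM against 68.4 to 91.9 CPM. Most of that thalamus sum was Tcf7l2, while Ramp3, the next in abundance, had 33.7, 20.5 and 24.8 CPM in WAS replicates 1, 2 and 3 against 25.1, 28.9 and 27.0 CPM. Of the striatum markers Gpr6 had no count and Drd2 1 count over all 6 libraries although Drd1 averaged 192 CPM, so a count near 0 in these tables was also found for a gene known to be used in forebrain.

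Of the 5 members, Npas1, Npas3, Npas4 and Arnt2 passed the cutoff and Sim1 did not. Npas1, Npas3 and Npas4 had an unadjusted p under 0.05 and were higher in the libraries labelled WAS, where 7.24% of all genes tested had such a p in either direction, 3.85% in this direction and 3.4% in the other. Npas1 alone met the study's criteria (1.82% of all genes tested did so in this direction and 0.676% in the other). None passed an adjusted p of 0.05. The shares with an unadjusted p under 0.05, 3.85% higher and 3.4% lower, are also the background for the gene lists below. The groups did not overlap for Npas1 and Npas4, which held for 12.2% of all genes tested, 8.42% with WAS higher and 3.76% with WAS lower. Npas1 is among the genes the study itself singled out from these same libraries, in the opposite direction, so its call here is not independent evidence and its direction rests on the labels.

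**Figure D1:**
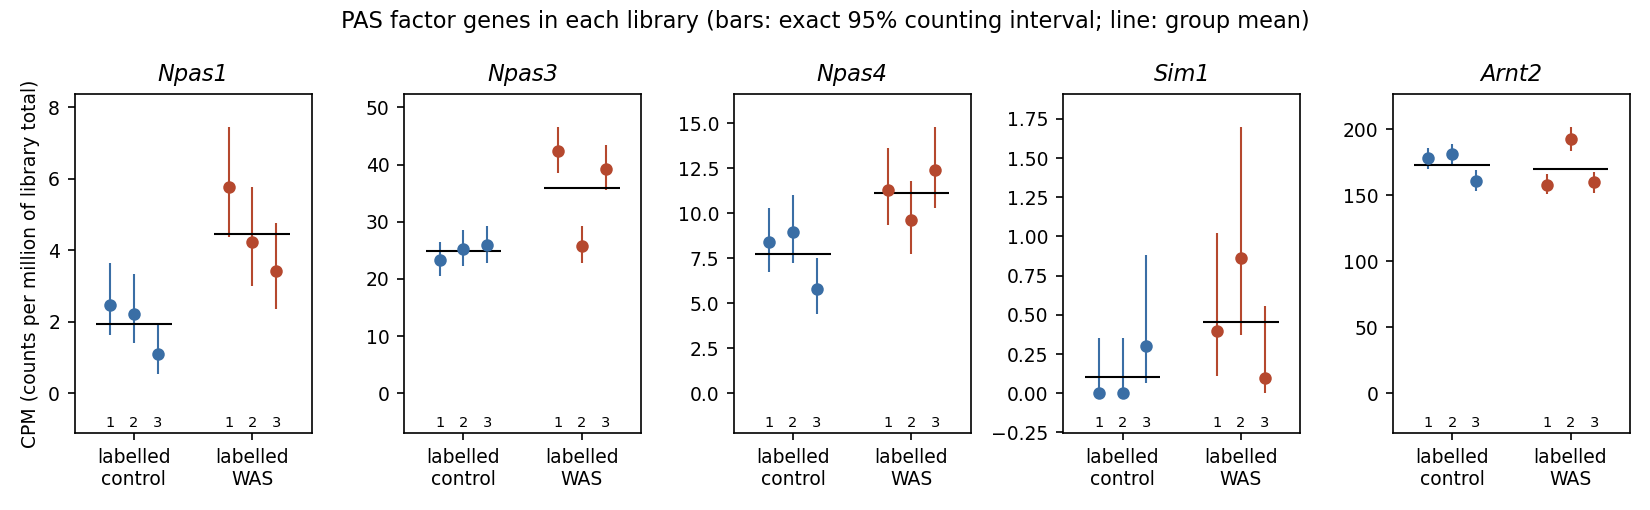
Level of each gene in each library in CPM (vertical axes differ and begin just below 0), with replicate numbers under the points, exact 95% intervals for counting error and the group mean as a line. The 3 WAS libraries lie above the 3 control libraries for Npas1 and Npas4, while for Npas3 WAS replicates 1 and 3 stand at 42.4 and 39.3 CPM and the other 4 libraries between 23.3 and 25.9 CPM.

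Npas1 had 58, 39 and 34 counts in WAS replicates 1, 2 and 3 and 26, 23 and 11 counts in control replicates 1, 2 and 3. As CPM these were 5.76, 4.22 and 3.41 against 2.48, 2.22 and 1.10. Each library labelled WAS was above each library labelled control, and WAS replicate 1 and control replicate 3 marked the ends of a 5.23-fold range. The exact (Clopper-Pearson) 95% interval of the nearest pair overlapped, being 2.36 to 4.76 CPM in WAS replicate 3 and 1.62 to 3.63 CPM in control replicate 1. These intervals cover counting error only. The means were 4.46 ± 1.20 CPM (SD, n = 3) and 1.93 ± 0.729 CPM (SD, n = 3), where counting alone would give an SD of 0.676 and 0.432 CPM. The log2 fold change was 1.16 (standard error 0.37, unadjusted p = 0.00849, adjusted p = 0.550, edgeR with Benjamini-Hochberg adjustment). An exact two-sided permutation test of the CPM values gave p = 0.1, the smallest that 3 libraries against 3 allow.

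The difference in Npas1 remained above 1.5-fold in every fit with a library left out, with log2 fold changes from 0.90 without control replicate 3 to 1.37 without control replicate 1. Without WAS replicates 1 and 3, which had the lowest striatum and the highest thalamus markers, WAS replicate 2 alone gave 1.08 against the controls. That setting was chosen after seeing the data, and 1 WAS library gives no spread for its group. In WAS replicate 2 the striatum markers summed to 1376 CPM, the highest of the 6, and Npas1 was at 4.22 CPM. The part of the region markers in the Npas1 difference was not tested. Bulk RNA does not separate a different number of Npas1 cells from a different amount of Npas1 RNA per cell, and the same holds for the other genes.

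**Figure D2:**
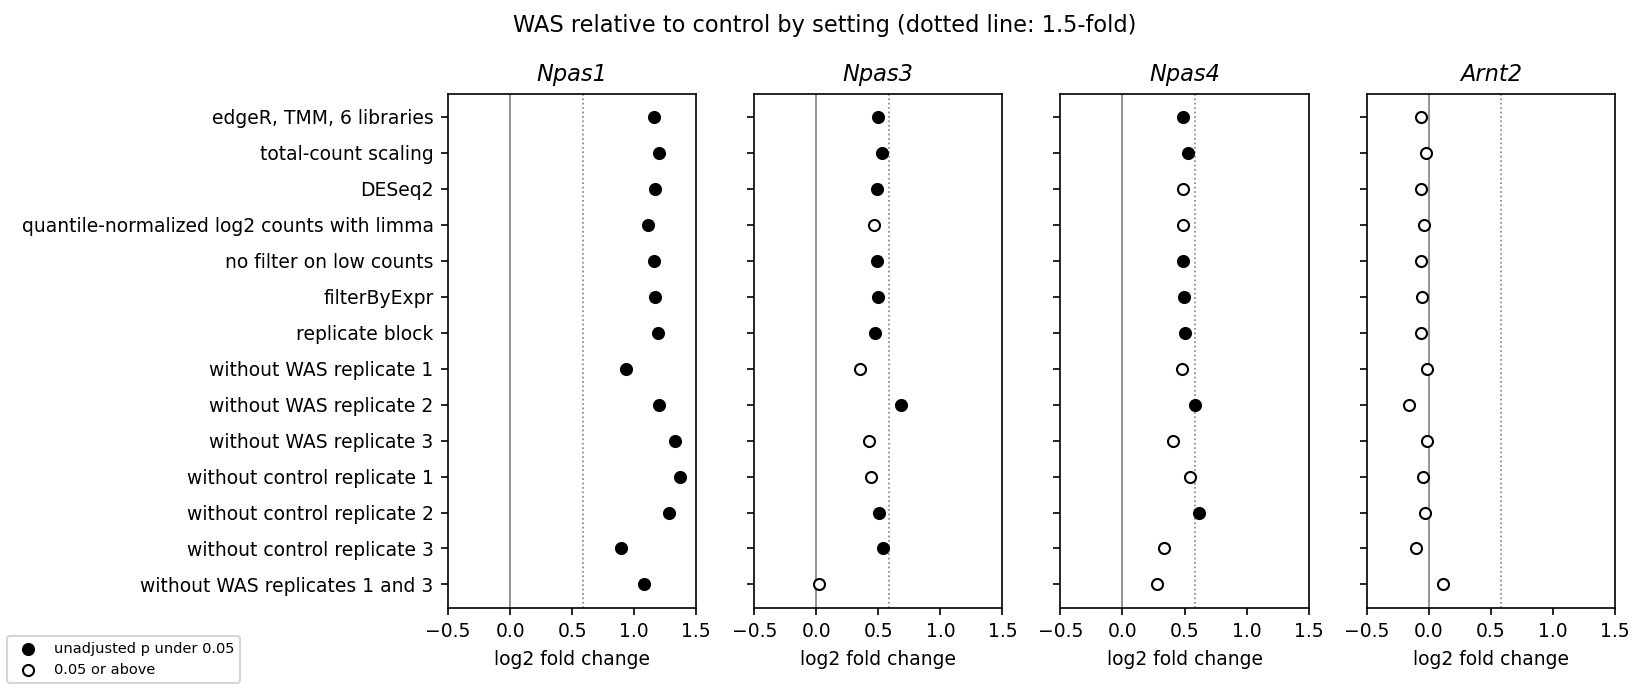
Log2 fold change of WAS relative to control for each tested gene (columns) under each setting (rows), filled where the unadjusted p was under 0.05. Npas1 stays to the right of the dotted line at 1.5-fold in all rows, Npas3 drops to 0.02 in the lowest row and Arnt2 stays near 0.

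The genes whose profile over the 6 libraries lay nearest to that of Npas1 were Smtn, Ttc39aos1 and Prim2. Nearness was the root mean square difference of centred log2 CPM among 11157 genes with a mean of at least 5 CPM, and it was 0.252, 0.282 and 0.373, where the median gene was at 0.741. Smtn, which encodes the smooth muscle protein smoothelin, had 8.44, 7.03 and 6.21 CPM in the libraries labelled WAS and 5.52, 4.14 and 2.81 CPM in those labelled control. Ttc39aos1, a non-coding RNA, had 6.95, 6.27 and 7.81 against 4.67, 3.66 and 1.90 CPM. Prim2, a subunit of DNA primase, had 7.65, 6.81 and 4.91 against 4.19, 4.43 and 3.31 CPM. All 3 were lowest in control replicate 3, as Npas1 was, which their choice by likeness to Npas1 favours. Low counts as in these genes carry a wide counting error.

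Npas3 had 427, 239 and 392 counts in WAS replicates 1, 2 and 3 and 245, 262 and 258 counts in the control replicates. The CPM values were 42.4, 25.8 and 39.3 against 23.3, 25.2 and 25.9. WAS replicates 1 and 3 stood apart, and WAS replicate 2 lay among the controls. The WAS mean of 35.8 ± 8.80 CPM (SD, n = 3) had a spread well above the 1.91 CPM that counting alone gives, whereas the control mean of 24.8 ± 1.32 CPM (SD, n = 3) had a spread near its counting value of 1.55 CPM. The log2 fold change was 0.49 (standard error 0.17, unadjusted p = 0.0136, adjusted p = 0.585 by edgeR), which is 1.41-fold and under the study's limit.

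The Npas3 result rested on which libraries entered. On all 6 libraries, limma on quantile-normalized log2 counts gave a log2 fold change of 0.46 with an unadjusted p of 0.0715, while the other 5 settings kept p under 0.05, DESeq2 with 0.00742 among them. Without WAS replicate 2 the log2 fold change was 0.68 (adjusted p = 0.00829, in a range of 0.00829 to 0.9998 over the alternatives). Leaving out WAS replicate 1, WAS replicate 3 or control replicate 1 gave 0.36, 0.42 and 0.44, with unadjusted p of 0.0577, 0.0537 and 0.0536. Without both WAS replicates 1 and 3 it was 0.02.

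Markers of other regions moved with Npas3. Tcf7l2, a transcription factor high in thalamic and midbrain neurons, had 234, 42.0 and 173 CPM in WAS replicates 1, 2 and 3 and 36.6, 20.6 and 38.4 CPM in the controls. The midbrain monoamine neuron markers summed to 59.4, 29.4 and 118 CPM against 22.1 to 22.9 CPM, and their dopamine transporter gene Slc6a3 had 107, 0 and 100 counts against 0, 3 and 3. Astrocyte genes summed to 3676 to 3826 CPM in WAS and 3769 to 3885 CPM in control. The glutamate transporter genes Slc1a2 and Slc1a3, the most abundant of them, differed by -0.10 and -0.11 (standard error 0.07 and 0.09). The water channel gene Aqp4 had 111, 80.1 and 105 CPM against 87.2, 70.6 and 68.5 CPM, and the filament gene Gfap, named after its values were seen, had 89.0, 44.6 and 92.3 against 60.2, 36.5 and 58.5 CPM. The part of these genes in the Npas3 difference was not tested.

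**Figure D3:**
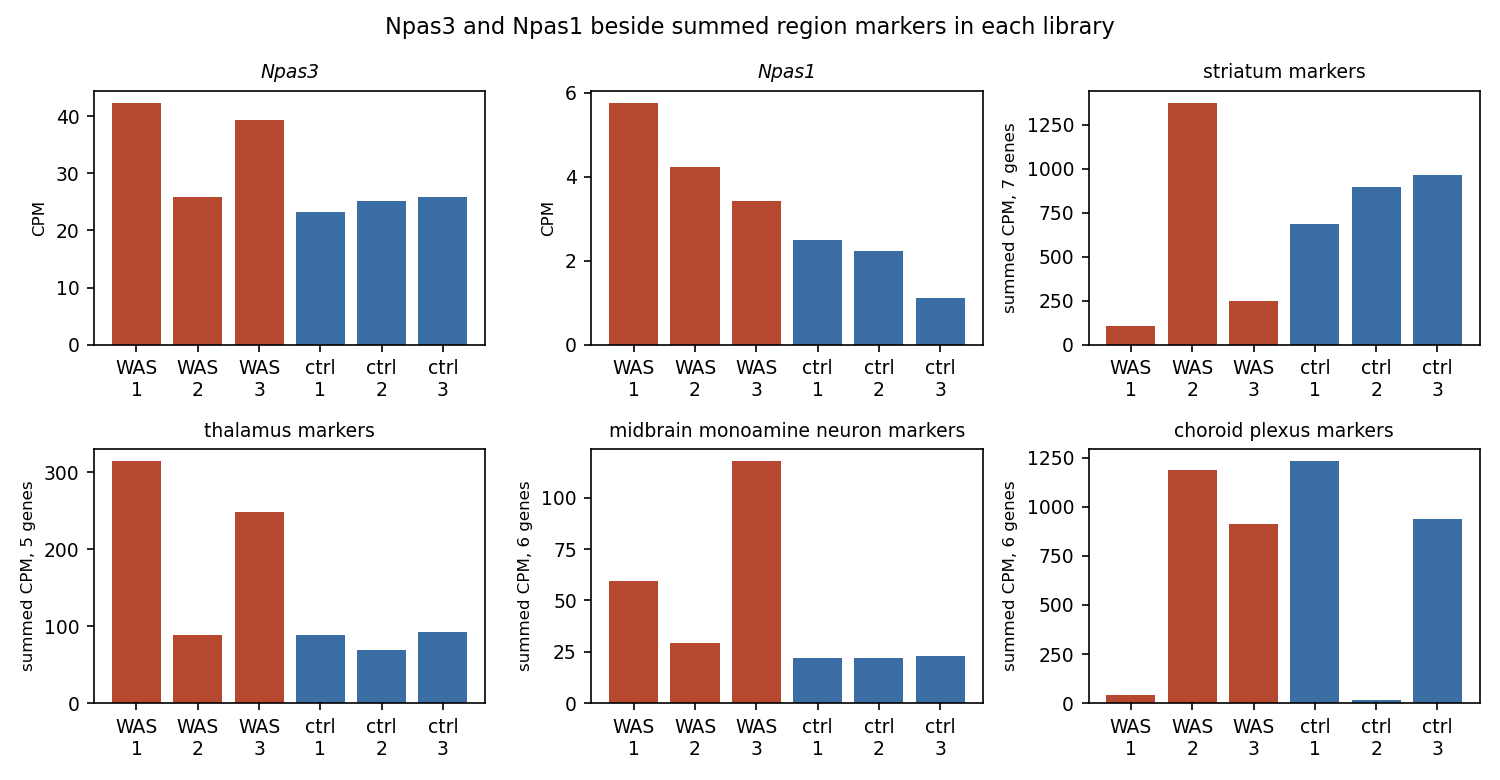
Npas3 and Npas1 in CPM and the summed CPM of marker genes for 4 other tissues in each library (orange-red bars WAS, blue bars control, axes from 0). Npas3 is high in the WAS replicates 1 and 3 in which striatum markers are lowest (108 and 251 CPM) and thalamus markers highest (314 and 248 CPM), while Npas1 is above the controls in WAS replicate 2 as well.

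Npas4 had 114, 89 and 124 counts in WAS replicates 1, 2 and 3 and 88, 93 and 58 counts in the control replicates. As CPM these were 11.3, 9.62 and 12.4 against 8.38, 8.96 and 5.81. The groups did not overlap, though WAS replicate 2 and control replicate 2 were close and control replicate 3 was low. The means were 11.1 ± 1.41 CPM (SD, n = 3) and 7.72 ± 1.67 CPM (SD, n = 3), with SDs of 1.07 and 0.865 CPM from counting alone. The log2 fold change was 0.49 (standard error 0.21, unadjusted p = 0.039, adjusted p = 0.670 by edgeR), or 1.41-fold.

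The unadjusted p of Npas4 stayed under 0.05 in 2 of the 6 fits that left out a library. The smallest differences were 0.33 without control replicate 3 (unadjusted p = 0.140) and 0.40 without WAS replicate 3 (unadjusted p = 0.123), and the largest was 0.61 without control replicate 2, which passes 1.5-fold. Without WAS replicates 1 and 3 it was 0.28. On all 6 libraries the log2 fold change was 0.49 with both DESeq2 (unadjusted p of 0.0506) and limma on quantile-normalized log2 counts (0.0508), and the other 4 settings kept p between 0.0303 and 0.0485.

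Fos, the AP-1 immediate early gene, was among the 3 genes with the profile nearest to Npas4, at a root mean square difference of 0.125, where the median gene was at 0.363. It had 37.3, 32.8 and 45.7 CPM in the libraries labelled WAS and 31.1, 32.8 and 25.3 CPM in those labelled control. Galnt6, a glycosyltransferase gene, was nearest at 0.116 with 9.04, 8.54 and 10.9 against 7.14, 6.84 and 5.71 CPM, and Phyhd1 followed at 0.130. All 4 genes, Npas4 included, were lowest in control replicate 3, which the choice by likeness to Npas4 favours. The end of Phyhd1 shares sequence with other transcripts, so its counts are uncertain.

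**Figure D4:**
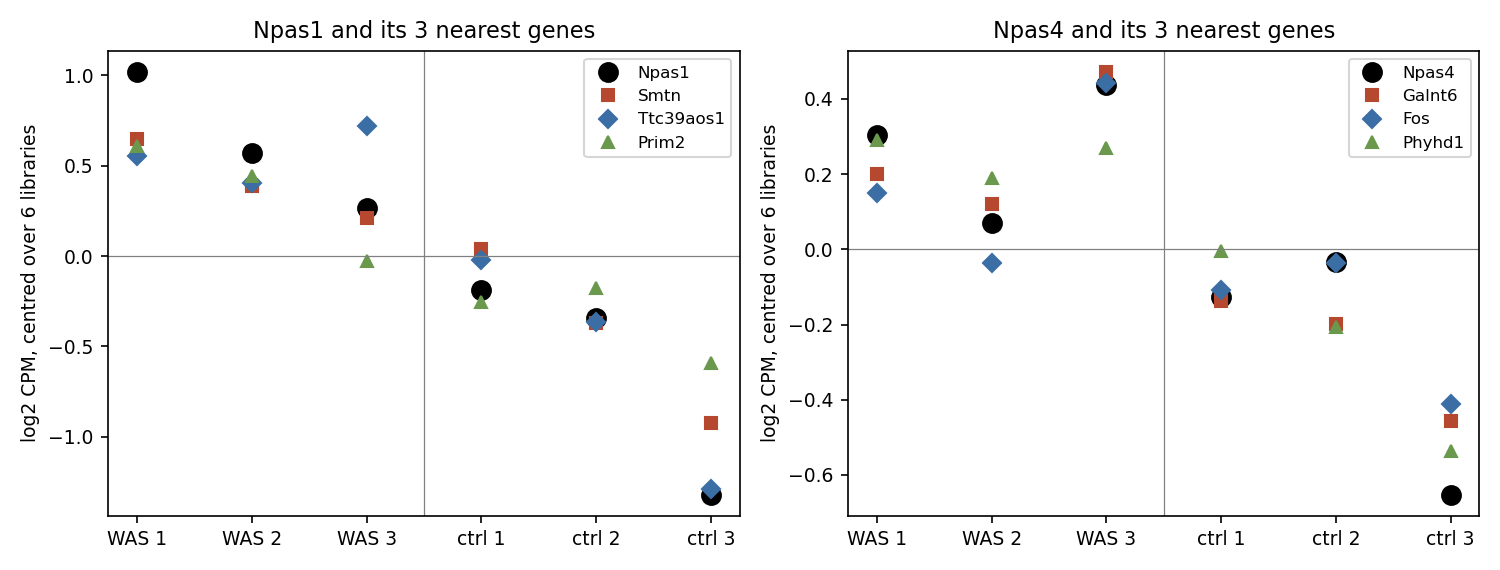
Log2 CPM centred on each gene over the 6 libraries for Npas1 (left) and Npas4 (right), each with the 3 genes of nearest profile (root mean square differences 0.252 to 0.373 and 0.116 to 0.130). WAS values lie to the left of the vertical line and control values to the right. Control replicate 3 is lowest for all genes shown, which the choice by likeness favours.

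The other immediate early genes did not share 1 direction. Of 14 activity-induced genes, all tested, 3 had an unadjusted p under 0.05 and were higher in the libraries labelled WAS, 2 were lower with such a p, and 9 did not pass. Of all genes tested, 3.85% were higher and 3.4% lower with such a p. The median log2 fold change of the list was 0.29, where that of all genes tested was 0.00088. Junb, a partner of Fos, was at 142 ± 14.0 CPM against 113 ± 15.5 CPM (SD, n = 3 each, log2 fold change 0.30, standard error 0.11, unadjusted p = 0.0199). Btg2, an antiproliferative early gene, differed by 0.36 (standard error 0.14, unadjusted p = 0.0251) and Fos by 0.34 (standard error 0.14, unadjusted p = 0.0381). Egr1, a zinc finger early gene, was lower, with 453, 437 and 500 CPM in WAS replicates 1, 2 and 3 against 603, 674 and 537 CPM (log2 fold change -0.42, standard error 0.10, unadjusted p = 0.00111). Egr3 was also lower (-0.28, standard error 0.09, unadjusted p = 0.0133), while Arc, a synaptic early gene, was at 205 ± 10.2 against 208 ± 37.9 CPM (SD, n = 3 each). Among the fits on 5 libraries, the unadjusted p stayed under 0.05 in 6 of 6 for Egr1, 5 for Egr3, 4 for Junb and 3 each for Btg2 and Fos. Without WAS replicates 1 and 3 the median of the list was 0.05, with Egr1 at -0.51 and Fos at 0.10. The adjusted p of these 6 genes lay between 0.477 and 0.961.

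Genes known as regulated by Npas4 were read beside it. Of 9 listed and tested, 0 were higher and 1 was lower with an unadjusted p under 0.05, and the median log2 fold change was -0.04. Kcna1, a potassium channel gene, had 375, 404 and 349 CPM in the WAS replicates against 434, 450 and 394 CPM (log2 fold change -0.22, standard error 0.09, unadjusted p = 0.0293, adjusted p = 0.636). Scg2, a secretogranin whose peptides modulate inhibition, had 283, 275 and 375 CPM against 228, 235 and 295 CPM (0.26, standard error 0.14, unadjusted p = 0.0807). Bdnf, which encodes a neurotrophin, had 143, 91.6 and 178 CPM against 146, 143 and 126 CPM (-0.04, standard error 0.18, unadjusted p = 0.819) and is named after its values were seen. Kcna1 kept an unadjusted p under 0.05 in 3 of the 6 fits that left out a library, and without WAS replicates 1 and 3 Bdnf differed by -0.63. Many of these genes are also driven by other activity-dependent factors.

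Sim1 was near the detection limit. It had 4, 8 and 1 counts in WAS replicates 1, 2 and 3 and 0, 0 and 3 counts in the control replicates. The groups overlapped, with WAS replicate 3 below control replicate 3. A count of 0 allows up to 3 counts by a one-sided limit, or 0.286 and 0.289 CPM in control replicates 1 and 2, and the two-sided exact 95% intervals in the plot of the libraries reach 0.351 and 0.355 CPM. The summed counts of 13 and 3 gave a ratio of rates of 4.56 with an exact 95% interval of 1.25 to 25.0, which covers counting error only and treats each group as 1 pool. The exact two-sided permutation test on CPM gave p = 0.2, and edgeR without the low-count cutoff an unadjusted p of 0.132.

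Among genes of the paraventricular and supraoptic neurons that Sim1 helps to form, the hormone genes Oxt and Avp, named after their values were seen and sharing sequence at their ends, varied within groups. They had 105, 130 and 33 counts and 6, 26 and 0 counts in WAS replicates 1, 2 and 3. In control replicates 1, 2 and 3, Oxt had 6, 3 and 445 counts and Avp 2, 4 and 17. Trh, the thyrotropin-releasing hormone gene, also named after its values were seen, had 13, 12 and 25 counts against 6, 0 and 22. Otp, a transcription factor that works beside Sim1, had no count in any library. Their part in the Sim1 counts was not tested.

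Of the 7 genes in that list, 6 were tested, with 1 higher and 1 lower at an unadjusted p under 0.05 and a median log2 fold change of 0.25. Omitting WAS replicate 2 turned this median to -0.26, and omitting control replicate 3 raised it to 1.36. Mc4r, the melanocortin receptor that Sim1 neurons use, had 9.74, 5.51 and 5.21 CPM in WAS replicates 1, 2 and 3 against 4.19, 3.28 and 3.91 CPM (log2 fold change 0.81, standard error 0.29, unadjusted p = 0.0183, adjusted p = 0.615), and in fits with a library left out it ranged from 0.46 to 0.97. Pou3f2, a POU factor that acts after Sim1 in this lineage and is also used in cortex, was at 50.7 ± 3.55 against 61.9 ± 6.11 CPM (SD, n = 3 each, -0.33, standard error 0.10, unadjusted p = 0.00946, adjusted p = 0.565). The unadjusted p stayed under 0.05 in 4 of the 6 fits with a library left out for Mc4r and in 5 for Pou3f2. Crh, the releasing hormone that begins the stress axis, was at 22.1 ± 3.27 and 22.0 ± 1.05 CPM (SD, n = 3 each) with overlapping groups.

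Arnt2, the shared partner, had 1593, 1784 and 1595 counts in WAS replicates 1, 2 and 3 and 1866, 1875 and 1604 counts in the control replicates. The CPM values were 158, 193 and 160 against 178, 181 and 161. WAS replicate 2 was the highest of all and the groups overlapped. The means were 170 ± 19.6 CPM and 173 ± 10.7 CPM (SD, n = 3 each), against 4.19 and 4.10 CPM from counting alone, so the spread between libraries was larger than counting gives. The log2 fold change was -0.06 (standard error 0.10, unadjusted p = 0.553, adjusted p = 0.950 by edgeR) and lay between -0.16 and -0.01 with a library left out. Without WAS replicates 1 and 3 its sign turned, to 0.12. The highest library was 1.22-fold above the lowest, the narrowest range of the 5 genes.

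Other members of the family showed small differences. Of 11 other bHLH-PAS genes, 10 were tested, 1 was higher with an unadjusted p under 0.05, 0 were lower, and the median log2 fold change was -0.05, or 0.05 without control replicate 1 and 0.09 without WAS replicates 1 and 3. The exception was Epas1, which encodes the hypoxia-inducible factor HIF-2alpha and is high in endothelium, with 91.9, 90.9 and 92.9 CPM in WAS replicates 1, 2 and 3 against 81.3, 77.3 and 73.9 CPM (0.21, standard error 0.08, unadjusted p = 0.0256, adjusted p = 0.631). Its groups did not overlap, the difference was 1.16-fold, and its p stayed under 0.05 in 3 of the 6 fits with a library left out. Clock, the circadian partner of Arntl and the most abundant of this list, was at 88.8 ± 4.33 and 87.2 ± 6.63 CPM (SD, n = 3 each). Sim2, the close relative of Sim1, had 19 counts over all libraries and was not tested. All 6 PAS-domain period and coactivator genes were tested and 0 had an unadjusted p under 0.05, with a median of -0.04. The period gene Per1 and the coactivator gene Ncoa1 differed by -0.0023 and -0.03 (standard error 0.13 each).

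**Figure D5:**
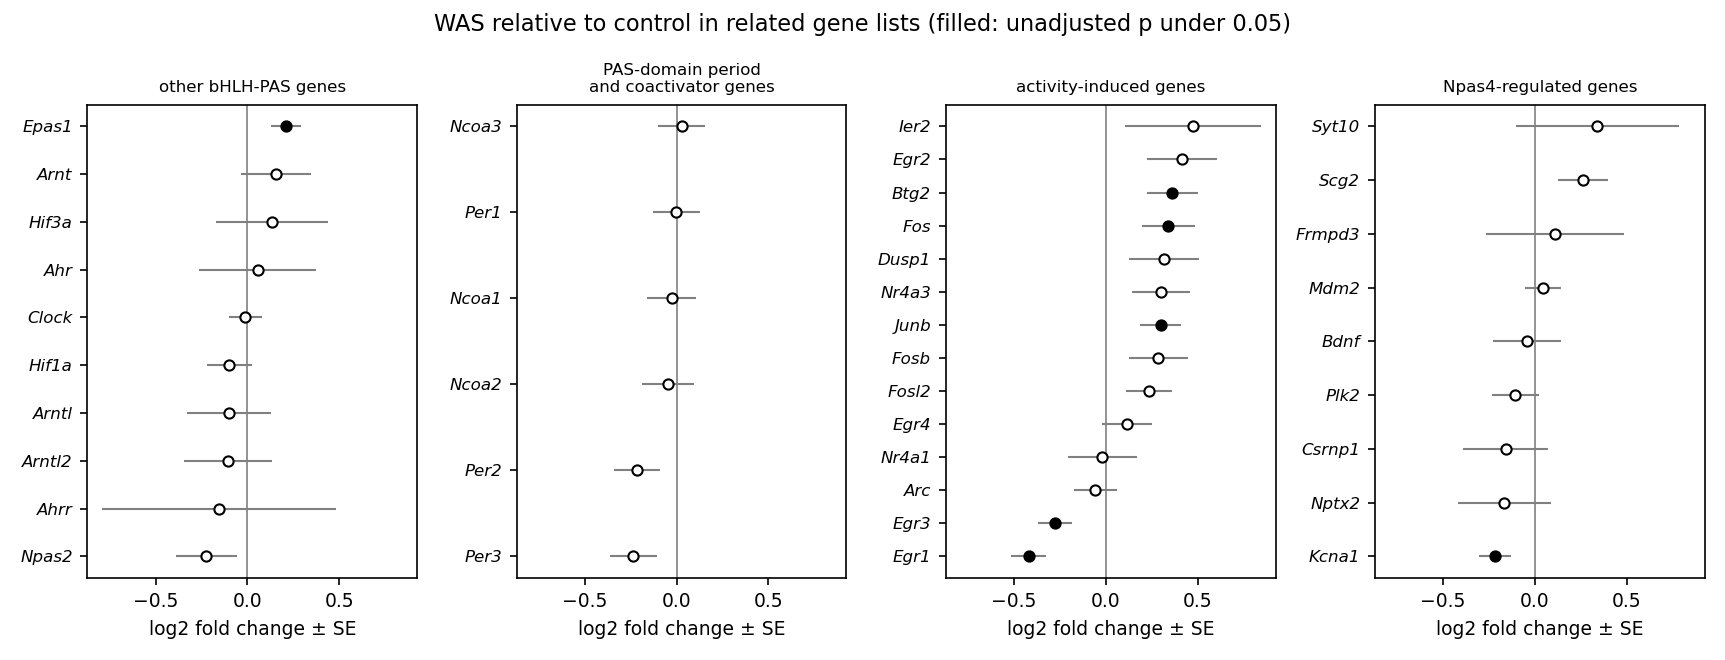
Log2 fold change of WAS relative to control with its standard error for the tested genes of 4 lists (panels), filled where the unadjusted p was under 0.05. In the family list Epas1 alone is filled, and the activity-induced genes spread from -0.42 for Egr1 to 0.47 for Ier2, which did not pass, with filled points on both sides of 0.

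Genes of the neuron classes and regions in which Npas1 is used, or of nearby ones, were read beside it. Of 9 pallidal and ventral forebrain neuron genes, 8 were tested and 0 had an unadjusted p under 0.05, with a median of -0.23. That median was -0.72 without WAS replicate 2, 0.06 without WAS replicate 1 and 0.43 without WAS replicates 1 and 3, so single libraries set its size and sign. Penk, the enkephalin precursor gene shared by pallidal and striatal neurons, had 23.8, 423 and 86.3 CPM in WAS replicates 1, 2 and 3 against 206, 240 and 251 CPM, the order of the striatum markers. Meis2, a homeobox gene of the same regions, was at 258 ± 136 and 306 ± 39.8 CPM (SD, n = 3 each). Npas1 was highest in WAS replicate 1, where Penk was lowest, and the part of these genes in the Npas1 difference was not tested. Of 10 interneuron genes, all tested, 2 were higher with an unadjusted p under 0.05, 0 were lower, and the median was 0.05, or 0.14 without WAS replicate 1 and -0.05 without WAS replicate 2. Htr3a, the serotonin receptor channel of a class of cortical interneurons, had 17, 19 and 27 counts in the WAS replicates against 6, 2 and 8 (log2 fold change 1.99, standard error 0.53, unadjusted p = 0.00327, adjusted p = 0.514), and it was between 1.60 and 2.43 with a library left out. Adarb2, an RNA-editing enzyme homologue that marks overlapping interneurons, had 80, 57 and 61 counts against 48, 45 and 44 (0.57, standard error 0.23, unadjusted p = 0.0307, adjusted p = 0.643), and its p stayed under 0.05 in 2 of the 6 fits with a library left out. Gad1, the GABA-synthesizing enzyme gene of all inhibitory neurons, was at 216 ± 37.5 and 218 ± 3.90 CPM, and the peptide gene Sst at 300 ± 7.12 and 293 ± 16.8 CPM (SD, n = 3 each). The astrocyte list, read for Npas3, had 1 gene higher (Aqp4, 0.36, standard error 0.13, unadjusted p = 0.0201), 0 lower and 7 that did not pass, with a median of 0.10. The list's median was -0.06, Aqp4 differed by 0.05 and Gfap by -0.26 without WAS replicates 1 and 3.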

How the data were processed

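The authors sequenced QuantSeq 3′ libraries as single-end 75-base reads, aligned them with Bowtie2 and made the deposited read counts per gene symbol from unique and multiple alignments with Bedtools. The submitters' processing notes name the build mm10. Versions and strand use are not given in the sources used here. The deposited counts are whole numbers, without the quantile normalization that the study applied later. The 79 entries that share a symbol with another entry were kept apart.

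From the counts, CPM of the library total was computed, and the whole table was fitted with edgeR 4.0.16 in R 4.3.3 (TMM factors 0.976 to 1.01, quasi-likelihood test, no block) on 15239 genes with a mean log2(quantile-normalized count + 1) of at least 2. P-values were adjusted by Benjamini and Hochberg over these genes. A standard error is |log2 fold change| over the root of F. To meet the study's criteria a gene needed p below 0.05, unadjusted, and at least 1.5-fold. The test was checked on simulated counts. Counting intervals are exact 95% Clopper-Pearson intervals, and reads without molecular identifiers make them too narrow. Alternatives used limma 3.58.1, DESeq2 1.42.0, other scaling and filters, a block for the replicate number, and the omission of each library in turn.

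Samples were grouped by the labels. The members and the 17 gene lists were chosen with earlier results of these data known. Genes named from a list were its 2 most abundant, plus up to 4 with the smallest p under 0.05. For Npas1 and Npas4, which had the widest range of the 4 tested members, the 3 genes nearest in profile (0.5 counts added) were named. Not every gene this gives is reported, and a result in the cortex list is not reported here. Drd2, Gpr6, Otp, Sim2, Ier2, Gfap, Bdnf, Oxt, Avp and Trh lie outside it and were named after their values were seen. Same-numbered libraries deviated together with r of 0.0662, 0.0846 and 0.0873, too weak to pair them. RefSeq promoters were found for all 5 members.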

Additional observations from a re-analysis of the deposited data

How the results depend on the processing

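Npas1 kept its direction and met the study's criteria in all 13 alternatives, with log2 fold changes of 0.90 to 1.37 with a library left out and 1.08 to 1.20 otherwise, and with adjusted p of 0.151 to 0.9998. Npas3 ranged from 0.36 to 0.68 with a library left out, was 0.02 without WAS replicates 1 and 3, and met the criteria in 1 alternative, without WAS replicate 2. Npas4 ranged from 0.33 to 0.61 with a library left out, was 0.28 without WAS replicates 1 and 3, and met them in 1, without control replicate 2 (0.61). Arnt2 lay between -0.16 and -0.01 with a library left out and was 0.12 without WAS replicates 1 and 3, a setting chosen after seeing the data in which the lone WAS library is assumed to vary like the controls. The difference of Sim1 in mean CPM was 0.354 and lay between 0.149 and 0.531 with a library left out. It was 0.765 without WAS replicates 1 and 3. The cause of these shifts was not tested.

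The 380 genes past the study's criteria became 261 to 831 with a library left out, the highest without WAS replicate 2. The 0 genes past an adjusted p of 0.05 became 0 to 484, again highest without WAS replicate 2. They were 22 with DESeq2 and 49 with the replicate block. With the replicate block the log2 fold changes were 1.19 for Npas1, 0.47 for Npas3, 0.50 for Npas4 and -0.06 for Arnt2, and 417 genes met the criteria. Every library correlated best with its own number, a hint from the data and not the design. Of 221 list medians over the alternatives, 207 moved by less than the spread of the same list between replicates and 14 by more. A list that varies widely between libraries is therefore rarely counted as moved. The choroid plexus median ran from -0.75 to 0.72 and was never counted.

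Precision was limited by 3 libraries per group and, for Npas1 and Sim1, by counts below 60.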

Other observations

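Gene lists of other cell types and regions, examined for the make-up of the tissue, are given here by their genes with p below 0.05 in the edgeR test before adjustment. None of these genes passed an adjusted p of 0.05. Of all genes tested, 3.85% were higher and 3.4% lower with p below 0.05 before adjustment. Of 5 pan-neuronal markers, 2 were lower in WAS, and the median log2 fold change was -0.24. It was -0.14 without WAS replicate 1, -0.07 without WAS replicates 1 and 3, and -0.05 with limma on quantile-normalized counts. The lower genes were Rbfox3, the gene of the nuclear antigen NeuN (-0.36, standard error 0.11, unadjusted p = 0.00574), and Syt1, a calcium sensor of synaptic vesicles (-0.24, standard error 0.07, unadjusted p = 0.00715), and they differed by -0.16 and -0.20 without WAS replicates 1 and 3. The summed markers lay between 4530 and 5132 CPM in WAS and between 5247 and 5818 CPM in control. Among the cortex layer markers, Tbr1, a factor of deep layers, differed by -0.43 (unadjusted p = 0.0356) but by -0.0049 without WAS replicates 1 and 3.

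Of 5 thalamus markers, 3 were higher, namely Tcf7l2 (2.20), Prkcd (1.09) and Plekhg1 (0.60), and without WAS replicates 1 and 3 these differed by 0.36, 0.42 and -0.0076. Of 5 tested midbrain monoamine neuron markers, 3 were higher, namely Ddc (1.66), Th (2.01) and Slc6a3, with 107, 0 and 100 counts in WAS replicates 1, 2 and 3 against 0, 3 and 3 in control, and without those libraries Ddc and Th differed by 0.60 and 1.07. The control libraries are at or under the floor of 3 counts for Slc6a3, so no fold is given. The 5 tested striatum markers, the 5 oligodendrocyte markers, the 5 microglia markers, the 4 tested hypothalamic neuropeptide markers and the 6 choroid plexus markers held 0 genes with an unadjusted p under 0.05. Their medians were -0.62, 0.07, -0.11, 0.15 and -0.07. Single libraries decided both the striatum median (-2.30 if WAS replicate 2 is omitted, -0.10 if WAS replicate 1 is) and the choroid plexus median (-0.75 if WAS replicate 2 is omitted, 0.50 if control replicate 1 is). Without WAS replicate 2 the unadjusted p of all 5 striatum markers was under 0.05. The choroid plexus markers summed to 40.6 CPM in WAS replicate 1 and 15.7 CPM in control replicate 2 against 913 to 1232 CPM in the other 4 libraries.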
